A study of Mus musculus with 63 samples.

Results

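Organoids of the mouse small intestine labelled as knockouts of Cdk8 alone were compared with organoids of a control line at day 7. The comparison rests on 6 of the 63 libraries of the series, 3 of CDK8iIEC-KO organoids and 3 of VillinCreERT2 organoids, and these were taken by their labels and not by any measured value. CDK8iIEC-KO is the genotype VillinCreERT2/Cdk8fl/fl, in which the villin promoter drives a Cre recombinase in epithelial cells and 4-hydroxytamoxifen (4-OHT) switches it on to cut the floxed Cdk8 alleles. The control VillinCreERT2 carries the same Cre and intact Cdk8, and it also received 4-OHT, as did organoids of C57BL/6 mice without Cre, so that all 3 groups shared 100 nM 4-OHT for 24 h and the strain label C57BL/6. Every group had 3 libraries, and nothing in the labels states that these came from separate mice, so that the p-values measure the spread between libraries of what may be 1 organoid line per genotype. The ages and numbers of the donor mice were not given in the sources used here.

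CDK8 is a cyclin-dependent kinase that works with cyclin C, MED12 and MED13 as the kinase module of Mediator, the complex that carries signals from transcription factors at enhancers to RNA polymerase II. CDK19 is its close paralogue and can take its place in the module. Small intestinal organoids hold stem cells and Paneth cells in crypt buds and absorptive enterocytes, goblet, tuft and enteroendocrine cells around a lumen, and the enterocytes carry the brush border with its hydrolases and transporters. The comparison addresses what differs in this epithelium when CDK8 is deleted and CDK19 is left in place, with the deletion taken from the labels.

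The tables hold raw counts of reads per gene, given here as CPM, counts scaled to the size of each library with TMM factors. Totals ran from 20424462 to 21439044 counts in VillinCreERT2, from 21133160 to 21449826 in CDK8iIEC-KO and from 15485959 to 17634381 in C57BL/6 libraries. Of 54752 genes, 15125 passed the filter on low counts, and 14652 of these lay off the X and Y chromosomes and are described here. The sex chromosomes were left out because Xist, the RNA of the inactive X, stood at 342 to 432 CPM in VillinCreERT2, at 587 to 804 CPM in C57BL/6 and at 0.0452 to 0.458 CPM in CDK8iIEC-KO libraries, whereas the Y gene Ddx3y stood at 56.6 to 61.4 CPM in CDK8iIEC-KO and at 0 in the others. Sex and genotype therefore cannot be told apart in any gene that follows. A gene is called when edgeR's quasi-likelihood test gave a Benjamini-Hochberg adjusted p under 0.05 and the fold change was over 1.5, and adjusted p-values below are from that test. A gene is marked when C57BL/6 organoids differed from VillinCreERT2 organoids past the same cutoffs, since such genes vary between lines that both have intact Cdk8.

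Counts over the whole Cdk8 gene did not show the deletion. VillinCreERT2 libraries held 80.8, 71.9 and 74.2 CPM of Cdk8, and CDK8iIEC-KO libraries held 80.7, 83.1 and 78.0 CPM (log2 fold change 0.09 ± 0.06 (SE), adjusted p = 0.28). The groups overlapped, and C57BL/6 libraries lay below both at 62.3, 54.0 and 54.3 CPM. Cdk8 lies on chromosome 5 at chr5:146231230-146302874 (GRCm38, plus strand), and reads of all its exons enter 1 count, so that the loss of part of the gene need not lower it. Which exons the loxP sites flank was not given in the sources used here. The paper reports loss of CDK8 after tamoxifen in organoids of this genotype, against VillinCreERT2 controls, by qRT-PCR and immunoblot. Whether the sequenced libraries came from the organoids assayed there was not given in the sources used here. The study's own RT-PCR assay, whose 3 designed oligos are printed because they show which exons it can see, sits at the 5′ end of the coding sequence. In lower case, 5′ to 3′, they are:
Cdk8 forward primer: ggtcgaggacctgtttgaatac
Cdk8 probe: ttcctcttcgccttgtagacgtgc
Cdk8 reverse primer: gcgtagtctttatcgtccttcc
In the 13-exon transcript ENSMUST00000031640.14 of GENCODE vM21, the forward primer matched coding bases of exon 1 at chr5:146231737-146231758, the probe matched the opposite strand at chr5:146231791-146231814 in the same exon, and the reverse primer spanned the junction of exons 1 and 2.

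The other tested genes of the kinase module did not pass the cutoffs, while Med12 lies on the X chromosome and Med12l was below the filter. Cdk19 was at 29.1, 27.8 and 27.2 CPM in VillinCreERT2 and at 29.5, 28.4 and 29.2 CPM in CDK8iIEC-KO libraries (log2 fold change 0.05 ± 0.07 (SE), adjusted p = 0.64), and the groups overlapped. Ccnc, which encodes cyclin C, differed on the log2 scale by 0.10 ± 0.08 (SE, adjusted p = 0.33), and Med13 gave -0.17 ± 0.07 (adjusted p = 0.068). Med13l was the lowest of the 5 tested members at -0.25 ± 0.09 (adjusted p = 0.034), under the adjusted p cutoff but within the fold cutoff. Of 24 genes of the Mediator core and 23 genes of the SWI/SNF chromatin remodelling complex, 0 and 0 were called higher and 0 and 0 lower by edgeR, with 4 and 6 above at the adjusted p cutoff alone. Of all genes, 2.86% were called higher, 4.33% were called lower and 15.5% stood higher at the adjusted p cutoff alone. The 4 of the Mediator core lay near that last share. Neither complex gave enough tested genes for 0 calls to stand far from these shares. Their log2 fold changes ranged from -0.18 to 0.37 and from -0.09 to 0.42.

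In all, 1053 genes were called, which is 7.19% of those tested, with 419 higher (2.86%) and 634 lower (4.33%) in CDK8iIEC-KO. The median log2 fold change of all genes was 0.02. Most called genes were marked, namely 733 or 69.6%, against 26.2% of all tested genes. Of these marked genes, 647 moved the same way in C57BL/6 and 86 the other way, in a comparison that shares the VillinCreERT2 libraries. In 504 of them the mean of CDK8iIEC-KO lay between the means of the 2 control lines. That left 320 unmarked genes (2.96% of the 10806 unmarked genes tested), 108 higher (0.999%) and 212 lower (1.96%). All 3 CDK8iIEC-KO libraries lay beyond all 6 control libraries in 243 of the 320, while 17.2% of all unmarked genes did so, 10.6% above and 6.58% below. The CDK8iIEC-KO and VillinCreERT2 libraries alone did not overlap in 302 of the 320, against 44.9% of all genes. The 320 were chosen by calls and marks from these same libraries, so that both counts follow largely from that choice and support nothing further. An unmarked gene is one for which no difference between these control lines passed the cutoffs, which does not make it independent of the line.

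**Figure D1:**
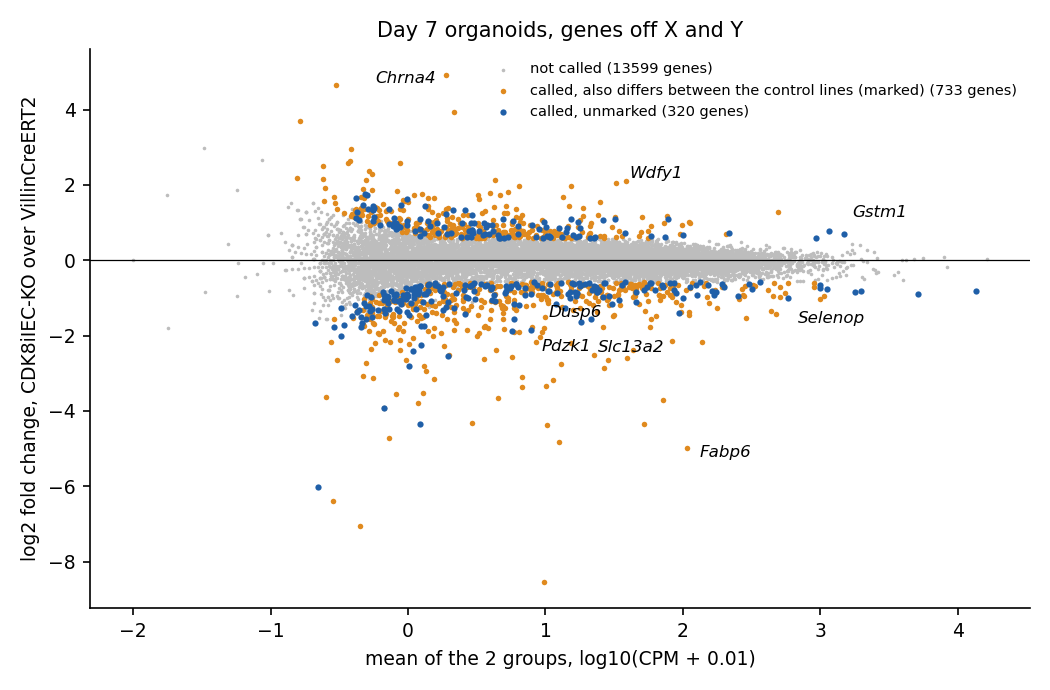
Each point is a gene off X and Y, with the log10 of its mean CPM in the 2 groups (plus 0.01) on the horizontal axis and the log2 fold change of CDK8iIEC-KO over VillinCreERT2 on the vertical axis. The 733 marked called genes (orange) include Fabp6 and Chrna4, and the 320 unmarked called genes (blue) include genes of high CPM such as Selenop and Gstm1.

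Transporters of the apical membrane and their scaffold were among the unmarked falls. Slc17a1, a phosphate and urate transporter, was at 7.31, 9.16 and 10.5 CPM in VillinCreERT2 and 2.40, 2.65 and 2.32 CPM in CDK8iIEC-KO libraries, with C57BL/6 at 8.69, 8.07 and 9.66 CPM (log2 fold change -1.87 ± 0.15 (SE), adjusted p = 6.6e-10). Pdzk1, which encodes a PDZ protein that holds transporters at the brush border, was at 11.2, 15.0 and 10.9 CPM in VillinCreERT2 and 3.80, 2.29 and 4.13 CPM in CDK8iIEC-KO libraries (log2 fold change -1.86 ± 0.17 (SE), adjusted p = 1.9e-08), with C57BL/6 at up to 13.3 CPM. For both genes the 2 control lines overlapped and every CDK8iIEC-KO library lay below all 6 control libraries. Slc13a2, a sodium-coupled carrier of citrate and succinate, held 22.3, 33.3 and 27.0 CPM in VillinCreERT2 and 8.27, 7.14 and 11.0 CPM in CDK8iIEC-KO libraries (log2 fold change -1.65 ± 0.16 (SE), adjusted p = 2.3e-06), and C57BL/6 held 26.4, 30.1 and 27.1 CPM. Slc47a1, which encodes the MATE1 exporter of organic cations, held 7.97, 9.02 and 9.65 CPM and 3.07, 2.43 and 3.48 CPM (log2 fold change -1.57 ± 0.15 (SE), adjusted p = 2.4e-08), and C57BL/6 held 5.65, 7.62 and 7.86 CPM. Neither of these carriers overlapped between CDK8iIEC-KO and the control libraries.

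A list of apical transporters was drawn up after these values had been seen, so that its count describes these libraries and supports nothing further. Of its 23 tested members 16 were called lower (all genes, 4.33%) and 0 higher, 10 of the falls were unmarked, and the median log2 fold change was -0.83. Unmarked falls included Slc7a9, the light chain of the cystine carrier, at -0.61 ± 0.07 (SE, adjusted p = 1.8e-07), Slc46a1, the proton-coupled folate transporter, at -0.61 ± 0.12 (adjusted p = 5.5e-04), and Slc46a3 at -1.16 ± 0.19 (adjusted p = 4.0e-04). The call of Slc46a1 was lost in 4 of 16 alternative settings. One of these was the mean of the 2 control lines, against which 10 members of the list were called lower. Slc5a12, a sodium-coupled carrier of lactate, had 4, 10 and 12 counts in VillinCreERT2 and 0, 0 and 0 in CDK8iIEC-KO libraries, at least 3.08-fold lower against a floor of 3 counts per library. The uncalled members included Cftr, the chloride channel of crypt cells, at 0.23 (adjusted p = 0.022), the chloride exchanger Slc26a3 at -0.10 (adjusted p = 0.16) and the drug exporter Abcc2 at 0.03 (adjusted p = 0.73).

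Most listed genes of sugar digestion, sugar uptake and gluconeogenesis fell. G6pc encodes glucose-6-phosphatase, the last step in the release of free glucose, and was the most lowered of them. It stood at 119, 131 and 156 CPM in VillinCreERT2, 53.4, 52.0 and 48.2 CPM in CDK8iIEC-KO and 111, 112 and 117 CPM in C57BL/6 libraries (log2 fold change -1.40 ± 0.12 (SE), adjusted p = 1.1e-06). Sis, the sucrase-isomaltase of the brush border, was at 5788, 7411 and 6842 CPM in VillinCreERT2 and 3340.2, 3702 and 3812 CPM in CDK8iIEC-KO (log2 fold change -0.88 ± 0.09 (SE), adjusted p = 2.2e-07). Treh, the trehalase, was at 117, 143 and 144 CPM and 65.4, 60.4 and 75.0 CPM (log2 fold change -1.01 ± 0.09 (SE), adjusted p = 4.1e-08), and Slc5a1, the sodium-glucose cotransporter SGLT1, was at 2006, 2441 and 2461 CPM and 1259, 1239.9 and 1356 CPM (log2 fold change -0.84 ± 0.07 (SE), adjusted p = 5.4e-09). In each of these 4 genes all CDK8iIEC-KO libraries were below all libraries of both control lines. Tkfc, the triokinase of fructose breakdown, differed on the log2 scale by -0.80 ± 0.07 (adjusted p = 4.2e-09), and Pklr, the pyruvate kinase of liver and gut, -0.65 ± 0.06 (adjusted p = 2.2e-08). Both calls were lost against the mean of the 2 control lines. Of 17 genes in a list of these steps, also drawn up after values were seen, 13 were called lower, 11 of them unmarked, where 4.33% of all genes and 1.96% of unmarked genes were called lower, and all 17 lay below 0, at a median log2 fold change of -0.81. Lct, the lactase, was the member nearest to 0 at -0.02 ± 0.13 (adjusted p = 0.93). Slc2a5, the fructose transporter, and Fbp1 had log2 fold changes of -1.34 and -1.13 but were marked.

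**Figure D2:**
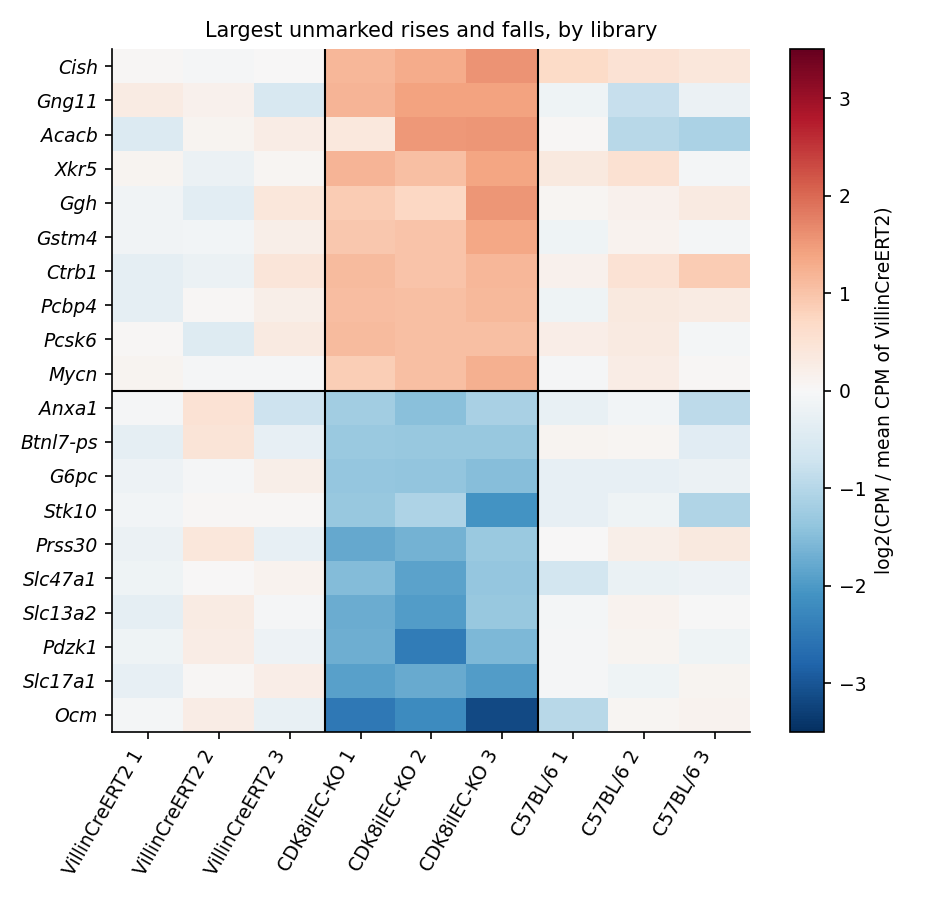
The 10 largest unmarked rises (upper rows) and falls (lower rows) among genes with at least 50 counts on average in the higher group, in 9 libraries, coloured by the log2 of CPM over the mean CPM of VillinCreERT2. Columns 4 to 6 are CDK8iIEC-KO and differ from both control lines in most rows, with Ocm the deepest fall shown.

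The enterocyte list, which shares its called members Sis, Slc2a2, Slc2a5, Slc5a1 and Slc15a1 with the lists above, also held falls. Of 24 genes 10 were called lower and 0 higher, against the background of 4.33% called lower, and 19 had an adjusted p under 0.05 on the lower side whatever the fold (all genes, 14.7%). Against the mean of the 2 control lines 6 were called lower. The median log2 fold change was -0.50. The summed level of the list was 20320.2 to 24156 CPM in VillinCreERT2, 14512 to 16371 in CDK8iIEC-KO and 17917 to 18656 in C57BL/6 libraries, so that CDK8iIEC-KO lay below both controls. Apoa1, an apolipoprotein of chylomicrons and high-density lipoprotein, was unmarked at -0.77 ± 0.10 (adjusted p = 8.5e-06), and so was Apoc3 at -0.80 ± 0.13 (adjusted p = 3.9e-04). Alpi, the intestinal alkaline phosphatase, was at 1265, 1194 and 1521 CPM in VillinCreERT2, 650.5, 635 and 672 CPM in CDK8iIEC-KO and 365, 378 and 381 CPM in C57BL/6 libraries, and as a marked gene it was lower still in the second control. Genes that mark any epithelial cell gave no call, with 0 of 10 called higher, 0 lower and a median of -0.08. In bulk libraries, fewer cells of a type and less RNA of these genes per cell cannot be told apart.

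Selenop, the secreted selenium carrier, and Dusp6, a phosphatase of ERK kinases, were further unmarked falls with narrow spreads. Selenop was at 720.4, 861 and 736 CPM in VillinCreERT2, 374, 382 and 403 CPM in CDK8iIEC-KO and 919.7, 969 and 997 CPM in C57BL/6 libraries (log2 fold change -1.00 ± 0.07 (SE), adjusted p = 1.3e-10). Dusp6 was at 45.2, 46.6 and 47.9 CPM, 21.4, 21.1 and 24.2 CPM and 40.0, 42.4 and 44.0 CPM in that order (log2 fold change -1.07 ± 0.07 (SE), adjusted p = 3.4e-11). For both genes every CDK8iIEC-KO library lay below all 6 control libraries, and the 2 control lines did not overlap either, with C57BL/6 the higher for Selenop and the lower for Dusp6. The transcript Ccdc152 overlaps Selenop, so that their reads may be shared. Egr1, an immediate early transcription factor, was at 26.2, 27.0 and 21.3 CPM in VillinCreERT2 and 16.5, 15.2 and 17.7 CPM in CDK8iIEC-KO (log2 fold change -0.59 ± 0.11 (SE), adjusted p = 1.8e-04), but in a list of 14 genes that answer to ERK signalling, drawn up after values were seen, Dusp6 and Egr1 were the only called members and the median was 0.04. The call of Egr1 was lost in 4 of 16 alternative settings. Etv4 and Etv5 gave 0.37 and 0.37, both above 0 at adjusted p = 0.0014 and 0.0031. Among 24 immediate early and AP-1 genes 3 were called lower, where 4.33% of all genes were, and 0 higher.

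Cytochrome P450 genes, which oxidise drugs, fatty acids and retinoids, split in both directions. Of 43 tested, 13 were called lower (all genes, 4.33%) and 6 higher (all genes, 2.86%), and all 7 unmarked calls were falls. Cyp2u1 fell from 55.5, 71.0 and 59.1 CPM in VillinCreERT2 to 27.3, 31.6 and 26.6 CPM in CDK8iIEC-KO libraries, with 75.7, 80.6 and 88.6 CPM in C57BL/6 (log2 fold change -1.12 ± 0.10 (SE), adjusted p = 4.3e-08). Cyp4f14 held the most counts of these falls, at 1093, 1362 and 1255 CPM in VillinCreERT2 and 729.5, 712 and 798 CPM in CDK8iIEC-KO (log2 fold change -0.73 ± 0.07 (SE), adjusted p = 2.2e-08), with 805, 885 and 913 CPM in C57BL/6, and its call was lost against the mean of the 2 control lines. Cyp3a11, the main drug-oxidising enzyme of the mouse gut and liver, differed on the log2 scale by -1.53 ± 0.12 (adjusted p = 4.3e-07) but was marked, with -1.17 for C57BL/6 over VillinCreERT2, and it lies 0.377 Mb from Cdk8.

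Among the rises, the mu class glutathione transferases formed a group on chromosome 3. Gstm1 was at 1094, 1048 and 1245 CPM in VillinCreERT2, 1894, 1768 and 1865 CPM in CDK8iIEC-KO and 771, 764 and 852 CPM in C57BL/6 libraries (log2 fold change 0.71 ± 0.07 (SE), adjusted p = 3.6e-08). Gstm4 was at 45.3, 46.1 and 57.2 CPM, 94.4, 98.5 and 127 CPM and 44.6, 54.0 and 47.1 CPM in that order (log2 fold change 1.11 ± 0.14 (SE), adjusted p = 4.8e-05). Both genes had every CDK8iIEC-KO library above every control library, and Gstm3 did so too at 0.60 ± 0.06 (adjusted p = 1.3e-07). The call of Gstm3 lay near the fold cutoff and was lost in 5 of 16 alternative settings. Of 7 Gstm genes, a list drawn up after values were seen, 4 were called higher (all genes, 2.86%), 3 of them unmarked, while Gstm5 stood at -0.05 (adjusted p = 0.70). These genes are near copies of one another, and how reads matching several of them were counted was not given in the sources used here, so that their separate values are uncertain. Targets of the oxidant sensor NRF2, a list that holds Gstm1 and Gstm3, gave no single direction, with 4 of 26 called higher, 1 lower and a median of 0.05, and Hmox1, the haem oxygenase, was the called fall at -0.74 (marked). Against the mean of the 2 control lines Hmox1 turned to 0.39.

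The largest unmarked rise by the rule for named genes was Cish, an inhibitor of STAT5 signalling that cytokines induce. It was at 1.23, 1.15 and 1.20 CPM in VillinCreERT2, 2.67, 2.93 and 3.53 CPM in CDK8iIEC-KO and 1.90, 1.70 and 1.57 CPM in C57BL/6 libraries (log2 fold change 1.34 ± 0.20 (SE), adjusted p = 1.1e-05). Socs3, a related inhibitor of STAT3 signalling that was named after its values were seen, moved the other way, from 27.1, 29.5 and 30.4 CPM to 18.6, 17.0 and 18.0 CPM (log2 fold change -0.70 ± 0.09 (SE), adjusted p = 8.0e-07). Neither gene overlapped between the groups. The call of Socs3 was lost against the mean of the 2 control lines. Mycn, a MYC family transcription factor, was at 4.03, 3.65 and 3.65 CPM in VillinCreERT2, 6.87, 7.78 and 8.87 CPM in CDK8iIEC-KO and 3.68, 4.55 and 3.90 CPM in C57BL/6 (log2 fold change 1.05 ± 0.14 (SE), adjusted p = 2.0e-06). Pcsk6, a proprotein convertase, was at 17.5, 12.4 and 21.1 CPM, 36.3, 35.3 and 35.2 CPM and 19.8, 21.0 and 16.1 CPM in that order (log2 fold change 1.07 ± 0.13 (SE), adjusted p = 6.2e-06). Acacb, the acetyl-CoA carboxylase that restrains fatty acid oxidation, rested on low counts, at 0.807, 1.20 and 1.35 CPM against 1.45, 3.20 and 3.25 CPM (log2 fold change 1.23 ± 0.33 (SE), adjusted p = 0.0082), and its first CDK8iIEC-KO library lay close to the highest VillinCreERT2 library. Gstm4, described above, was also among the 10 largest unmarked rises, and Gng11, Xkr5, Ggh, Ctrb1 and Pcbp4 completed them, with log2 fold changes of 1.32, 1.21, 1.11, 1.10 and 1.09. The call of Ggh was lost when only the 6 compared libraries were fitted.

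Proliferation genes were slightly higher as a group, each within the fold cutoff. All 20 lay above 0 on the log2 scale, at a median of 0.42, 19 passed the adjusted p cutoff alone, where 15.5% of all genes were higher, and 0 passed both. Top2a, the topoisomerase of dividing cells, was at 228, 213 and 222 CPM in VillinCreERT2, 309, 323 and 301 CPM in CDK8iIEC-KO and 342, 303 and 313 CPM in C57BL/6 (log2 fold change 0.49 ± 0.06 (SE), adjusted p = 6.1e-07). The summed level of the list was 1818 to 1963 CPM in VillinCreERT2, 2356 to 2511 in CDK8iIEC-KO and 2290.0 to 2369.9 in C57BL/6, so that the second control was nearer to CDK8iIEC-KO. Genes of the Fanconi anaemia pathway and homologous recombination, a list drawn up after values were seen, gave 22 of 22 above 0, a median of 0.35 and 5 called higher (all genes, 2.86%). All 5 calls were lost against the mean of the 2 control lines. Fancd2, whose product is ubiquitinated at stalled replication forks, was at 12.4, 10.6 and 13.5 CPM in VillinCreERT2, 18.3, 20.8 and 18.9 CPM in CDK8iIEC-KO and 20.2, 17.6 and 14.4 CPM in C57BL/6 (log2 fold change 0.67 ± 0.11 (SE), adjusted p = 3.1e-05).

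Stem cell genes gave calls that were all marked. Of 23 tested 4 were called higher (all genes, 2.86%) and 0 lower (all genes, 4.33%), with a median of 0.17. Ascl2, a Wnt-driven transcription factor of crypt base stem cells, was at 4.32, 3.36 and 5.15 CPM in VillinCreERT2, 8.50, 7.51 and 6.96 CPM in CDK8iIEC-KO and 8.76, 9.72 and 10.7 CPM in C57BL/6 (log2 fold change 0.84 ± 0.14 (SE), adjusted p = 6.9e-05), so that CDK8iIEC-KO lay between the controls and above VillinCreERT2. Lgr5, the R-spondin receptor of the same cells, was at 27.8 ± 3.31 CPM (SD, n = 3) in VillinCreERT2 and 26.2 ± 3.09 CPM (SD, n = 3) in CDK8iIEC-KO (log2 fold change -0.08 ± 0.10 (SE), adjusted p = 0.55), and Olfm4 was at 953, 859.7 and 1046 CPM and 1114, 1150.2 and 823 CPM (log2 fold change 0.11 ± 0.16 (SE), adjusted p = 0.65). Both overlapped between the groups. Msi1, an RNA-binding protein of crypt progenitors, gave 0.15 ± 0.13 (adjusted p = 0.45). Wnt3, the Wnt ligand that Paneth cells make, was at 5.60, 6.00 and 4.30 CPM in VillinCreERT2 and 4.30, 4.39 and 4.18 CPM in CDK8iIEC-KO (log2 fold change -0.31 ± 0.14 (SE), adjusted p = 0.099), with overlapping groups. Of 38 Wnt pathway genes 2 were called higher and 1 lower, shares near the 2.86% and 4.33% of all genes, and of 23 Notch pathway genes edgeR called 0 higher and 0 lower. By adjusted p without regard to fold, 2 Notch genes stood higher and 4 lower, where 15.5% and 14.7% of all genes did so.

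Among the secretory lineage lists, the summed level of goblet genes was lower in CDK8iIEC-KO than in VillinCreERT2, and few single genes were called. Atoh1, the transcription factor that commits progenitors to the secretory fate, was at 23.1, 18.3 and 21.1 CPM in VillinCreERT2 and 19.6, 20.2 and 18.5 CPM in CDK8iIEC-KO (log2 fold change -0.10 ± 0.09 (SE), adjusted p = 0.42), with overlapping groups. Goblet genes had 3 of 14 called lower, 0 higher and a median of -0.34, where 4.33% of all genes were called lower. Their summed level was 3799 to 3967 CPM in VillinCreERT2, 2768 to 2939 in CDK8iIEC-KO and 2878 to 3064 in C57BL/6, so that the second control overlapped the knockout. Muc2, the gel-forming mucin, was the unmarked one at 255, 245 and 206 CPM in VillinCreERT2 and 154, 170.3 and 128 CPM in CDK8iIEC-KO (log2 fold change -0.64 ± 0.12 (SE), adjusted p = 0.0010), with the C57BL/6 libraries between them. Its call was lost against the mean of the 2 control lines and when VillinCreERT2 replicate 1 or CDK8iIEC-KO replicate 3 was left out, and against that mean 0 goblet genes were called lower. Of 15 Paneth genes 1 was called higher, the marked Defa3, and 0 lower, and Lyz1, the Paneth lysozyme, differed on the log2 scale by -0.14 ± 0.06 (adjusted p = 0.082). The summed Paneth level was 2962 to 3073 CPM in VillinCreERT2, 2627 to 2861 in CDK8iIEC-KO and 5467 to 6847 in C57BL/6, and so lower in every CDK8iIEC-KO library than in either control. Only 3 Paneth genes were unmarked. Against the mean of the 2 control lines several Paneth genes were called lower, Lyz1 among them at -1.14. The 15 tuft genes had 2 called lower and a median of -0.34, and their summed level was 33.0 to 36.6 CPM in VillinCreERT2, 26.0 to 27.2 in CDK8iIEC-KO and 39.8 to 47.8 in C57BL/6. Enteroendocrine genes had 2 of 25 called lower, the marked hormones Pyy and Ghrl, a share near that of all genes, and 11 members lay above 0 and 14 below it.

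**Figure D3:**
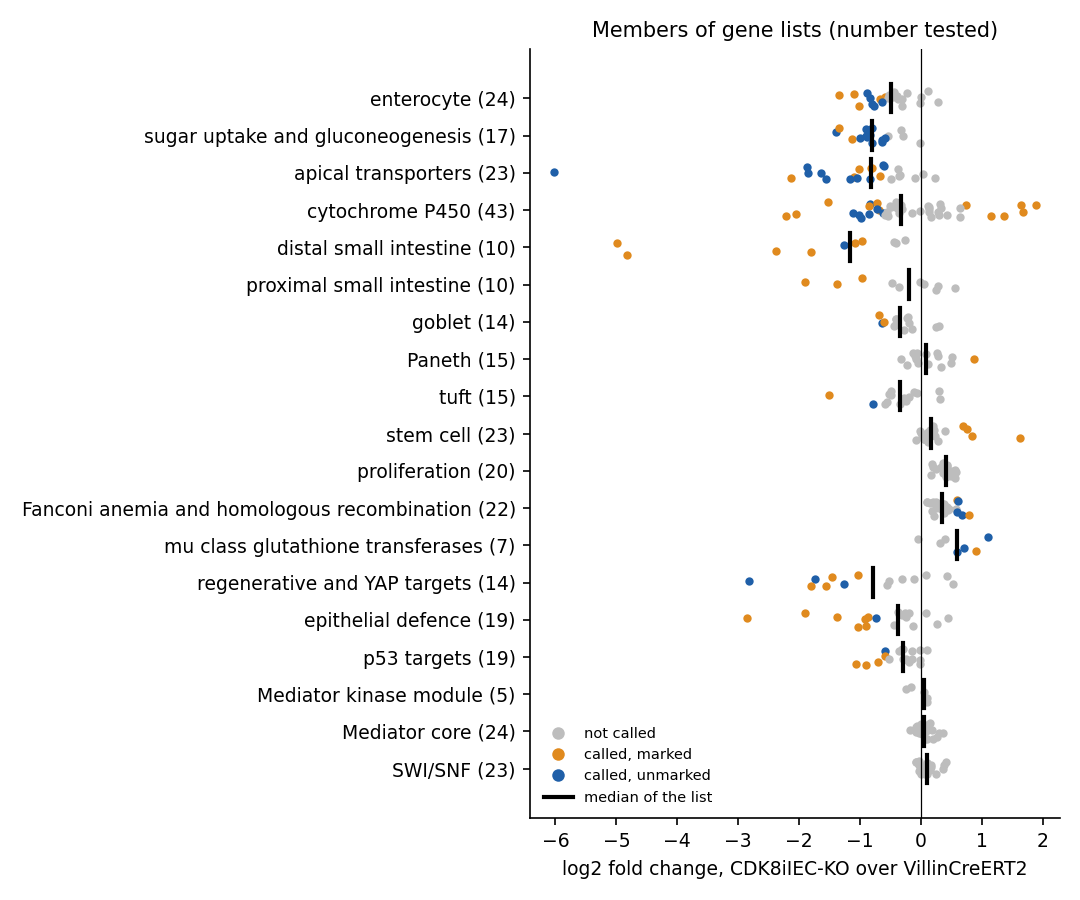
Members of 19 gene lists by their log2 fold change, CDK8iIEC-KO over VillinCreERT2, with the number tested in brackets, the median as a bar, and called genes coloured by whether they were marked (orange) or unmarked (blue). Most enterocyte, sugar and apical transporter genes lie below 0 (the far left point is Slc5a12, fitted on 0 counts in CDK8iIEC-KO), proliferation genes lie narrowly above 0, and kinase module, Mediator core and SWI/SNF genes stay uncalled.

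Several genes of the distal small intestine were higher in the VillinCreERT2 line than in both others. Fabp6, the ileal bile acid binding protein, was at 211, 306 and 111 CPM in VillinCreERT2, 5.79, 5.95 and 8.03 CPM in CDK8iIEC-KO and 0.190, 0.455 and 0.0582 CPM in C57BL/6 libraries (log2 fold change -4.99 ± 0.56 (SE), adjusted p = 7.1e-05). Slc10a2, the apical bile acid transporter of the ileum, was at 73.4, 110.3 and 34.6 CPM, 10.7, 14.3 and 17.0 CPM and 2.48, 2.10 and 1.98 CPM in that order (log2 fold change -2.38 ± 0.37 (SE), adjusted p = 7.6e-04), and Cubn, the receptor for the intrinsic factor-vitamin B12 complex, was at 24.5, 30.9 and 17.4 CPM, 1.04, 0.961 and 0.557 CPM and 0.825, 1.19 and 1.51 CPM (log2 fold change -4.82 ± 0.29 (SE), adjusted p = 1.5e-08). CDK8iIEC-KO lay below VillinCreERT2 in every library for all of these, and C57BL/6 lay lower still for Fabp6 and Slc10a2. Of 10 distal genes 7 were called lower (all genes, 4.33%) with a median of -1.17, and 1 of these was unmarked. That one was Slc51b, a subunit of the basolateral bile acid exporter, at 18.5, 24.2 and 16.2 CPM in VillinCreERT2, 8.09, 7.74 and 8.87 CPM in CDK8iIEC-KO and 10.5, 13.9 and 15.5 CPM in C57BL/6 (log2 fold change -1.26 ± 0.14 (SE), adjusted p = 6.1e-07). Of 10 proximal genes 3 were called lower and 0 higher. By adjusted p whatever the fold 5 stood lower (all genes, 14.7%) and 2 higher (all genes, 15.5%), the latter near the share of all genes. The higher ones were Gata4 and Gip, a hormone of the upper intestine, at 0.56 ± 0.08 (adjusted p = 8.9e-06). Pdx1, a transcription factor of the duodenum, was at 10.7, 7.10 and 9.90 CPM, 2.08, 2.01 and 3.30 CPM and 0.381, 0.455 and 0.349 CPM (log2 fold change -1.91 ± 0.26 (SE), adjusted p = 4.3e-05), and Gata4, which marks the proximal gut, differed on the log2 scale by 0.25 ± 0.06 (adjusted p = 0.0022). The summed proximal level overlapped between the lines. Most called genes of both lists were marked, and against the mean of the 2 control lines 2 distal and 0 proximal genes were called lower. The part of intestinal region in the falls of enterocyte genes was not tested.

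**Figure D4:**
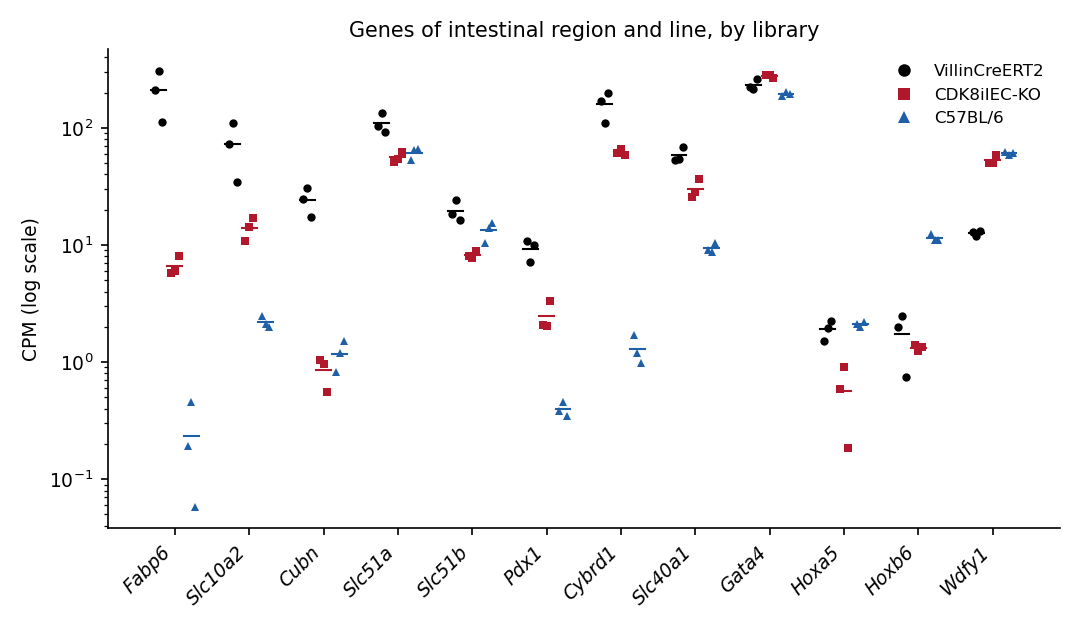
CPM on a log axis of 12 genes of intestinal region or line in the 3 VillinCreERT2 (circles), 3 CDK8iIEC-KO (squares) and 3 C57BL/6 libraries (triangles), with each group's mean as a bar. Fabp6, Slc10a2 and Cubn are highest in VillinCreERT2, Hoxa5 is lowest in CDK8iIEC-KO, and Wdfy1 is low in VillinCreERT2 alone.

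Within the Hox clusters, which keep positional identity in culture, Hoxa5 was the clearest difference. It was at 1.52, 1.97 and 2.25 CPM in VillinCreERT2, 0.588, 0.916 and 0.186 CPM in CDK8iIEC-KO and 2.09, 1.99 and 2.21 CPM in C57BL/6 (log2 fold change -1.75 ± 0.31 (SE), adjusted p = 1.1e-04), with both controls above every CDK8iIEC-KO library. Hoxa4 gave -0.66 ± 0.23 (adjusted p = 0.035), and these were the 2 called among 12 tested, where 4.33% of all genes were called lower. The call of Hoxa4 was lost with DESeq2 and when single libraries were left out. Hoxb6, by contrast, was at 1.99, 2.49 and 0.750 CPM in VillinCreERT2, 1.40, 1.24 and 1.35 CPM in CDK8iIEC-KO and 12.5, 11.0 and 11.0 CPM in C57BL/6, so that Hoxb6 separated the second control and not the knockout. Wdfy1, a phosphoinositide-binding protein of endosomes, was at 12.9, 11.9 and 13.2 CPM in VillinCreERT2, 50.2, 50.3 and 58.5 CPM in CDK8iIEC-KO and 62.7, 58.8 and 61.1 CPM in C57BL/6 (log2 fold change 2.06 ± 0.07 (SE), adjusted p = 1.9e-17, marked). Wdfy1 came from a list of 5 genes chosen as variable between substrains, and was the only call among 4 tested (all genes, 2.86% called higher). Whether the lines differ in substrain was not tested. In Wdfy1 the knockout and the C57BL/6 line both stood far above the VillinCreERT2 line. Chrna4, a nicotinic acetylcholine receptor subunit and the largest marked rise of the naming rule, also stood above VillinCreERT2 in both, at 0.0475, 0.0480 and 0.250 CPM, 3.44, 3.39 and 4.09 CPM and 2.92, 2.67 and 2.68 CPM. The largest marked fall, Car1, a carbonic anhydrase of the colon, had 72, 1067 and 84 counts in VillinCreERT2 and 0, 0 and 3 counts in CDK8iIEC-KO libraries, and the second VillinCreERT2 library held most of the counts of its group, so that no fold is given.

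Genes of injury, p53 and defence responses gave more calls lower than higher in CDK8iIEC-KO, against 4.33% of all genes called lower. Of 14 regenerative and YAP target genes 7 were called lower and 0 higher, with a median of -0.79 and 3 of the falls unmarked. The summed level of the list was 423 to 526 CPM in VillinCreERT2, 289.8 to 295 in CDK8iIEC-KO and 212 to 225 in C57BL/6, so that the second control lay below the knockout. Both unmarked members named next stood above the knockout in C57BL/6. Clu, a chaperone of revival stem cells, was at 2.56, 1.15 and 2.30 CPM in VillinCreERT2, 0.769, 0.549 and 0.464 CPM in CDK8iIEC-KO and 2.22, 2.61 and 2.79 CPM in C57BL/6 (log2 fold change -1.74 ± 0.33 (SE), adjusted p = 2.7e-04). Anxa1, a phospholipid-binding protein of repairing epithelium, was at 2.99, 4.32 and 1.85 CPM, 1.31, 1.10 and 1.39 CPM and 2.54, 2.84 and 1.63 CPM (log2 fold change -1.27 ± 0.26 (SE), adjusted p = 6.2e-04). Both rested on few counts, and every CDK8iIEC-KO library lay below every control library. Among 19 p53 targets 5 were called lower and 0 higher, and Bbc3, which encodes the cell death inducer PUMA, was the unmarked one at -0.59 ± 0.11 (adjusted p = 2.3e-04). It lay at the fold cutoff and lost its call in 6 of 16 alternative settings, among them those without VillinCreERT2 replicate 2, CDK8iIEC-KO replicate 1 or CDK8iIEC-KO replicate 3. Against the mean of the 2 control lines 0 p53 targets were called lower. Cdkn1a, the cell cycle inhibitor p21, was at 512, 629 and 510.4 CPM in VillinCreERT2, 356, 342 and 396 CPM in CDK8iIEC-KO and 253, 311 and 279 CPM in C57BL/6 (log2 fold change -0.60 ± 0.10 (SE), adjusted p = 2.6e-04, marked). Epithelial defence genes had 8 of 19 called lower, led by the marked lectin Reg3b at -2.85, while their summed level overlapped between VillinCreERT2 (3117 to 3344 CPM) and CDK8iIEC-KO (3231 to 3367 CPM). Interferon-stimulated genes split, with 2 of 29 called higher and 4 lower, and their summed level overlapped between the groups.

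Markers of immune, mesenchymal and endothelial cells were low in all libraries, and the immune sums did not overlap between the groups. The lists, in that order, summed to 6.19 to 7.61, 7.60 to 9.38 and 0.995 to 1.33 CPM in CDK8iIEC-KO and to 4.17 to 5.75, 7.05 to 7.90 and 1.19 to 1.75 CPM in VillinCreERT2 libraries. In C57BL/6 libraries they summed to 9.25 to 9.71, 11.0 to 11.8 and 2.10 to 2.44 CPM, above both other groups. Of their 17, 15 and 7 markers, 6, 4 and 4 were at 0 in all 6 libraries of CDK8iIEC-KO and VillinCreERT2. Of 3 immune markers above the filter 2 were called higher (all genes, 2.86%), Cd79b and Itgam, both marked. The part of these markers in the results was not tested. Pancreatic enzymes moved in opposite directions, Ctrb1 higher at 16.2, 17.7 and 27.1 CPM in VillinCreERT2 and 43.8, 40.9 and 45.9 CPM in CDK8iIEC-KO, and Pnlip lower at 24, 27 and 26 against 2, 1 and 2 counts, at least 9.06-fold.

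Genes around Cdk8 were examined because a floxed locus carries flanking chromosome from the strain in which it was made. Within 10 Mb of the start of Cdk8, 20 of 193 tested genes were called (10.4%), above the 7.19% of all genes, and 6 of 139 unmarked genes (4.32%) against 2.96%. Positions were known for all but 553 of the tested genes. The unmarked ones were Ocm, Slc46a3, Muc3, Gper1, Kpna7 and Gm43597. Ocm, which encodes the calcium-binding protein oncomodulin, was the largest unmarked fall of the naming rule, at 3.18, 4.03 and 2.80 CPM in VillinCreERT2, 0.588, 0.732 and 0.371 CPM in CDK8iIEC-KO and 1.71, 3.52 and 3.67 CPM in C57BL/6 (log2 fold change -2.55 ± 0.30 (SE), adjusted p = 5.2e-07). Muc3, a membrane mucin of the brush border, was at 142, 158 and 116 CPM in VillinCreERT2 and 79.0, 95.6 and 82.3 CPM in CDK8iIEC-KO (log2 fold change -0.70 ± 0.16 (SE), adjusted p = 0.0059). Muc3a, annotated beside it, was also called lower at -0.67 but marked, and reads of near copies may be split between them. The effect of the deletion on these genes and that of their linkage to the floxed allele cannot be told apart.

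The promoters of the falling genes were read for motifs of enterocyte transcription factors, because HNF1 and HNF4 proteins are known to drive brush border and gluconeogenic genes. Promoter windows of 250 bases before the RefSeq start (GRCm38.p6) were found for 9965 tested genes, including 136 of the unmarked falls and 73 of the unmarked rises. The HNF1 motif, GTTAAT and ATT parted by 1 base of any kind and read on both strands, was in 4 of the 136 falls (2.94%), in 0 of the 73 rises and in 0.381% of all promoters. The HNF4 motif CAAAGTC was in 12 of the falls (8.82%), 2 of the rises (2.74%) and 4.14% of all, and its longer form CAAAGTCCA, which overlaps it, was in 1.47%, 0% and 0.592%. A GATA motif, AGATAAG, was in 3.68% of the falls, 0% of the rises and 2.36% of all, and a CDX2 motif, TTTATGG, in 2.94%, 2.74% and 1.94%. Among the 317 marked falls the HNF1 motif was in 0.946%, the HNF4 motif in 8.52%, its longer form in 1.89%, the GATA motif in 6.62% and the CDX2 motif in 2.52%, so that the HNF4 share was alike in marked and unmarked falls and the GATA share was higher in the marked ones. The motifs were chosen after the falls had been seen, no test was made, and a match is no evidence of binding. The windows of 4 falling genes are printed because they hold these motifs in genes described here, each 5′ to 3′ on the strand of its gene, in lower case with the 1 motif named for it in capitals. G6pc (chr11:101367466-101367715) and Cdhr2 (chr13:54701213-54701462), which encodes a cadherin that packs microvilli and was named after its values were seen, show the HNF1 motif, with an HNF4 match of Cdhr2 left in lower case, and Treh (chr9:44672983-44673232) and Tkfc (chr19:10604259-10604508) show the HNF4 motif:
G6pc: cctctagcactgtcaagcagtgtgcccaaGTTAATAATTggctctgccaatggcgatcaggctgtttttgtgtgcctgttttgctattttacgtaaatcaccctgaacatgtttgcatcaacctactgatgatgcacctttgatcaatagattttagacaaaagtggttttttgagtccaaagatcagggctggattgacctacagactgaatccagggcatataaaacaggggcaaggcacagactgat
Cdhr2: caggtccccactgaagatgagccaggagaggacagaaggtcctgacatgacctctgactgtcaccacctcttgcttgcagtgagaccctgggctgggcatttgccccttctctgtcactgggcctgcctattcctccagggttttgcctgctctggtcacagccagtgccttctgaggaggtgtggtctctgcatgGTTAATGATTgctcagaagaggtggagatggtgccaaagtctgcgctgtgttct
Treh: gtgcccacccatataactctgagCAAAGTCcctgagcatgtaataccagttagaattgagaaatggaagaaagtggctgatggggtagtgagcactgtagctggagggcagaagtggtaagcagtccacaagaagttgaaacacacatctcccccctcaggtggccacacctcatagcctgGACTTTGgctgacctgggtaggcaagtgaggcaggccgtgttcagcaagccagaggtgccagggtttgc
Tkfc: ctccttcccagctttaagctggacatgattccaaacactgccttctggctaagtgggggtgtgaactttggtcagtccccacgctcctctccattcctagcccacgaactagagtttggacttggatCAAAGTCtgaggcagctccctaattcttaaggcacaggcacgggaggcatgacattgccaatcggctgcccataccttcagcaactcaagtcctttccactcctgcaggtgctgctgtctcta
The first 3 lie on the plus strand and Tkfc on the minus strand. Cdhr2 was at 373, 447 and 380.1 CPM in VillinCreERT2, 218, 239 and 257 CPM in CDK8iIEC-KO and 341, 343 and 333 CPM in C57BL/6 libraries (log2 fold change -0.75 ± 0.07 (SE), adjusted p = 4.6e-09), so that it fell with the transporters of the same membrane.

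A second setting, labelled as a deletion of Cdk8, shares no library with this comparison. In the line VillinCreERT2/Cdk8fl/fl/Cdk19-/-, 4-OHT against its vehicle EtOH at day 7 is meant to delete Cdk8 within 1 line, on a background labelled as lacking CDK19. Whole-gene counts showed neither loss, since Cdk8 was at 49.6, 47.7 and 50.2 CPM with EtOH and 45.6, 42.8 and 47.2 CPM with 4-OHT (within-line log2 fold change -0.12, adjusted p = 0.16), and Cdk19 was at 39.0, 39.6 and 39.7 CPM and 45.7, 48.7 and 50.3 CPM (0.29, adjusted p = 5.7e-04). The paper reports loss of CDK8 after tamoxifen in organoids of this genotype too. Within this line 8.88% of the genes tested in both fits were called higher and 9.50% lower. Of the 203 unmarked falls of CDK8iIEC-KO tested there, 24 were called lower (11.8%) and 48 higher (23.6%), with a median log2 fold change of 0.16. Of 86 unmarked rises, 16 were called higher (18.6%) and 15 lower (17.4%), with a median of 0.02. In all, 40 of the 289 unmarked calls moved the same way within the line and 63 the opposite way, which is 1.56% and 2.45% of the 2567 genes called there.

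Genes with the same direction in both settings included several falls. G6pc was at 123, 107 and 74.9 CPM with EtOH and 70.8, 49.0 and 39.1 CPM with 4-OHT (within-line log2 fold change -0.94, adjusted p = 0.018), Slc47a1 at 1.61, 1.68 and 0.863 CPM and 0.162, 0.772 and 0.159 CPM (-1.90, adjusted p = 0.0013), and Clu and Msln gave -2.14 and -1.54. Mycn rose in both, at 0.65 within the line (adjusted p = 0.041), and so did Acacb, from 0.454, 0.0989 and 0.965 CPM to 5.82, 14.2 and 11.0 CPM. The 4-OHT libraries lay apart from the EtOH libraries in G6pc, Slc47a1 and Acacb. The opposite direction was seen in Pdzk1, at 7.87, 8.36 and 6.70 CPM with EtOH and 13.6, 12.3 and 8.96 CPM with 4-OHT (0.60, adjusted p = 0.0043), in Slc51b at 1.29, in Selenop at 0.92 and in Ocm at 1.63. Gstm1, which rose in CDK8iIEC-KO, fell from 878, 918 and 1006 CPM to 552, 549 and 543 CPM within the line (-0.77, adjusted p = 2.7e-05). For the enterocyte list the within-line median was 0.33 with 9 called higher and 3 lower, for proliferation genes it was -0.85 with 18 of 20 called lower, and for Paneth genes -1.31 with 15 of 15 called lower. The difference between the 2 settings was not tested, since their counts are in separate tables that were fitted apart, and they differ in genotype and in the control.

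**Figure D5:**
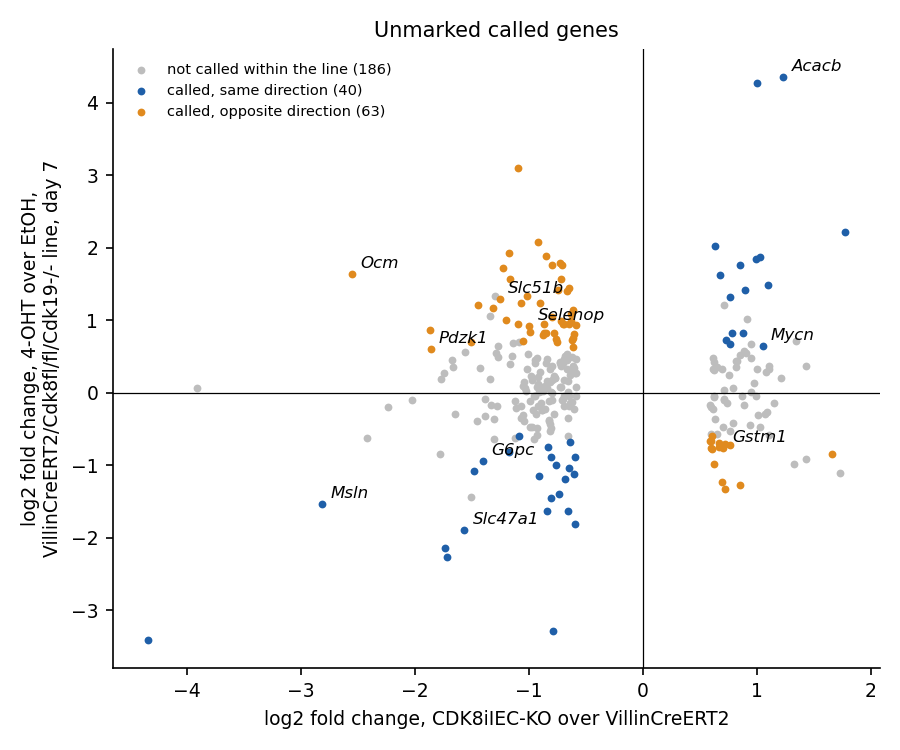
Each point is 1 of the 289 unmarked called genes tested in both settings, with the log2 fold change of CDK8iIEC-KO over VillinCreERT2 on the horizontal axis and that of 4-OHT over EtOH in the VillinCreERT2/Cdk8fl/fl/Cdk19-/- line at day 7 on the vertical axis. Blue points (40) were called the same way in both, orange points (63) the opposite way, and grey points (186) were not called within the line.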

How the data were processed

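PolyA RNA of organoids was sequenced in 100 bp paired-end reads. The authors deposited raw counts of reads per gene, and the submitters' processing notes name STAR 2.5.2, Subread 1.6.3 with featureCounts, and mm10. Strand use and the treatment of reads with several matches were not given in the sources used here. Groups were taken from the labels.

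All 15 day 7 libraries (5 groups of 3) were fitted together with edgeR 4.0.16 in R 4.3.3 (filterByExpr, TMM, robust quasi-likelihood), p-values were adjusted over all genes tested, and genes on X and Y were then left out. SE is the log2 fold change divided by the square root of F. Largest changes were named among called genes with at least 50 counts on average in the higher group and libraries that did not overlap. A fold against libraries with few counts was set against a floor of 3 counts per library, which covers counting error only. The within-line contrast was fitted on 24 time-course libraries in a separate table. The procedure was tested on simulated counts. Alternatives used DESeq2 1.42.0 and limma 3.58.1 (voom), other filters, scalings, controls and single libraries left out. The members and gene lists were chosen with earlier results of these data known. The replicate numbers of the labels were not used as pairs. Some genes are not reported here.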

Additional observations from a re-analysis of the deposited data

How the results depend on the processing

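The number of called genes was 725 to 1218 over the alternatives that kept all libraries and 853 to 1094 when 1 library was left out, and that of unmarked calls 226 to 387 and 267 to 364. When each library had to hold 10 counts of a gene, higher calls dropped from 419 to 279, and tested genes from 14652 to 12398. With the mean of VillinCreERT2 and C57BL/6 as the control, calls among named genes dropped to 89 from 134. Those lost included the marked Alpi (-0.11), Fabp6 (-0.12), Ascl2 (0.25) and Cdkn1a (-0.11) and the unmarked Pklr (-0.41), Tkfc (-0.58), Cyp4f14 (-0.47), Socs3 (-0.51), Muc2 (-0.44), Slc46a1 (-0.47) and Fancd2 (0.41). Lgr5 (-0.62), Lyz1 (-1.14), Wnt3 (-0.59) and Hoxb6 (-1.75) passed the cutoffs under it. Among the counts of list members called higher or lower, 31 moved by over 1.5 times, or by more than 1 gene to or from 0, under the mean control and 71 did not. With the 10-count filter 12 did, under the other alternatives that kept all libraries 0 to 6, and over the fits that left out 1 library 37 did and 575 did not. Under the mean control, lower calls went from 10 to 6 enterocyte, 16 to 10 apical transporter, 7 to 2 distal, 3 to 0 proximal, 3 to 0 goblet, 5 to 0 p53, 2 to 5 tuft, 2 to 9 Hox and 0 to 7 Paneth genes, and higher calls from 5 to 0 Fanconi and 6 to 3 cytochrome P450 genes. Within 5 Mb of Cdk8, a smaller window, 11 of 95 genes were called (11.6%). Under the mean control, log2 fold changes turned to -0.021 for Cdk19, -0.021 for Etv4, 0.15 for Gstm5, 0.39 for Hmox1, 0.15 for Med13, 0.011 for Med13l, 0.35 for Pdx1 and 0.15 for Slc10a2. Lgr5 and Lct, both uncalled, crossed 0 when single libraries were left out (Lgr5 from -0.17 to 0.021 and Lct from -0.13 to 0.14). The calls of Bbc3, Hoxa4, Gstm3, Cdkn1a, Egr1, Muc2, Slc46a1, Slc7a9, Muc3a and Fancd2 lay near a cutoff and were, like that of Car1, each lost when at least 1 library was left out. The cause of these shifts was not tested.

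Replicate numbers did not pair the samples (correlations of same-numbered deviations 0.0027, -0.045 and -0.053). With the replicate number as a block, 1044 genes were called, 316 of them unmarked, 3858 were marked, 118 list members, 134 named genes and 20 genes near Cdk8 were called, and within the line 2563 genes were called, 40 unmarked calls the same way and 64 the opposite way. A gene on low counts, such as Clu, Anxa1 or Acacb, is limited by depth.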
